A study of Mus musculus with 24 samples.

Results

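The 38 genes described here code for the digestive machinery of the lysosome and for the factors that switch it on. They were taken by gene symbol from a given list, and all 38 were found among the 56884 genes of the count table. By role they comprise 2 transcription factors (*Tfeb* and *Tfe3*), 4 lysosomal membrane proteins, 7 proteases, 8 glycosidases, 5 genes of lipid handling and 12 genes of the vacuolar ATPase (V-ATPase), of which 5 belong to its membrane sector V0, 6 to its cytosolic sector V1 and 1 is the accessory subunit gene *Atp6ap1*. The rule uses symbols and no measured value, although the list was drawn up with results of these data known, and all 38 passed the filter on low counts that left 13679 genes for testing.

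The cells were bone marrow-derived macrophages (BMDM), grown with M-CSF from 4 wild-type C57BL/6J female mice aged 9 weeks, numbered 1, 2, 4 and 5, and their RNA was sequenced in bulk. Each mouse gave 1 library in each of 6 conditions, 24 in all. Naive BMDM were left without cytokine. The other 5 groups received IL-4 at 20 ng/ml together with IL-13 at 20 ng/ml for 24 h, the stimulus of alternative activation, and 4 of these were pretreated for 1 h with an inhibitor, which was also kept in the medium with the cytokines. Tunicamycin (5 µg/ml) blocks N-glycosylation and thereby stresses the endoplasmic reticulum. Sal003 (10 µM) blocks removal of the phosphate from the translation factor eIF2α and so prolongs the integrated stress response. Oligomycin (1 µM) blocks the mitochondrial ATP synthase and was given in 8 libraries, 4 of them with ISRIB (1 µM), a compound that counteracts that response. The labels of these 8 libraries conflict on which 4 received ISRIB, with the title and the treatment label on one side and the library name and the replicate label on the other. They are therefore kept as oligomycin set A, with ISRIB by title and treatment label and without it by library name and replicate label, and oligomycin set B, for which each label says the reverse. No group received an inhibitor without the cytokines.

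Lysosomes break down proteins, glycans and lipids with acid hydrolases, and the V-ATPase pumps the protons that keep their lumen acidic. TFEB and TFE3 are basic helix-loop-helix transcription factors that bind the palindrome CACGTG near many lysosomal genes, and they are controlled largely by phosphorylation, which keeps them in the cytosol. RNA levels of *Tfeb* and *Tfe3* therefore do not report the activity of the proteins, which was not measured in these libraries. In macrophages the lysosome digests what the cell engulfs.

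Each library held between 16238727 and 26725278 reads on genes (median 18999998), and the lowest count of any of the 38 genes in any library was 528. Levels are given as CPM, counts scaled to a common library size, always in the order of mice 1, 2, 4 and 5, and fold changes on the log2 scale with their standard error (SE). A gene was called where the edgeR quasi-likelihood test gave a Benjamini-Hochberg adjusted *P* under 0.05 over all 13679 genes. In bulk RNA, fewer cells of a type and less RNA per cell cannot be told apart. All 8 macrophage markers were detected and summed to between 31100 and 36900 CPM in naive BMDM, 11400 and 13800 in IL-4/IL-13, 16400 and 18100 in tunicamycin, 13800 and 15600 in Sal003, 8780 and 9610 in set A and 13400 and 15300 in set B. *Lyz2* was the largest term of each sum, and single markers moved apart: from IL-4/IL-13 to tunicamycin the mean of *Csf1r* went from 3730 to 821 CPM, that of *Cd68* from 1230 to 481 CPM and that of *Mertk* from 66 to 19 CPM, while that of *Adgre1* went from 977 to 6680 CPM. The means of *Fcgr1*, *Cd14* and *Lyz2* also rose, from 36.9 to 230, 58.3 to 389 and 5980 to 8630 CPM. That of *Itgam* went from 104 to 97.2 CPM. The 3 T cell markers summed to at most 0.0569 CPM. The 6 neutrophil markers moved with the groups: they summed to between 31.7 and 62.3 CPM in naive, 18.0 and 33.2 in IL-4/IL-13, 0.0513 and 0.286 in tunicamycin, 4.20 and 6.74 in Sal003, 1.98 and 3.72 in set A and 14.6 and 18.5 in set B libraries. The 3 stromal markers, between 9.89 and 74.1 CPM in naive and 6.92 and 44.2 CPM in IL-4/IL-13, summed to 1.27 to 9.45 CPM with tunicamycin and to 2.40 to 24.1 CPM over the Sal003 and oligomycin libraries. The 2 dendritic cell markers, at 4.53 to 6.37 CPM in IL-4/IL-13, lay between 0.794 and 2.25 CPM with all 4 inhibitors. The part of these markers in the results was not tested. Mouse 4 had the highest share of reads on the 38 genes in each of the 6 groups.

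Per transcript length, *Psap* was the most abundant member in IL-4/IL-13 BMDM, at 22100 ± 1520 TPM, a unit that corrects for transcript length (SD, n = 4). It codes for prosaposin, the precursor of the activator proteins that present sphingolipids to their hydrolases. *Ctsb* (cathepsin B) followed at 5360 ± 426 TPM, and *Ctsd* (cathepsin D) and *Lamp1* (a major glycoprotein of the lysosomal membrane) came next at 2320 ± 247 and 2310 ± 144 TPM, which do not differ beyond their spread. At the lower end stood *Neu1* (sialidase) at 56.6 ± 1.16 TPM. *Tfe3* and *Tfeb* lay at 191 ± 9.35 and 145 ± 5.41 TPM.

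The 38 genes took 4.28 ± 0.269% of gene-assigned reads in naive BMDM (SD, n = 4), 5.51 ± 0.319% in IL-4/IL-13, 2.88 ± 0.167% in tunicamycin, 6.25 ± 0.31% in oligomycin set A, 7.0 ± 0.383% in oligomycin set B and 7.35 ± 0.36% in Sal003. The tunicamycin libraries, at 2.71 to 3.04%, lay below all others, and the Sal003 libraries, at 6.99 to 7.84%, overlapped only those of set B. The 20 hydrolase and lipid genes carried most of this, with 4.67 ± 0.3% of reads in IL-4/IL-13 and 2.21 ± 0.155% in tunicamycin, while the 12 V-ATPase genes took 0.464 ± 0.00344% and 0.409 ± 0.00673%. *Psap* and *Ctsb* weigh heavily in these sums.

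**Figure D1:**
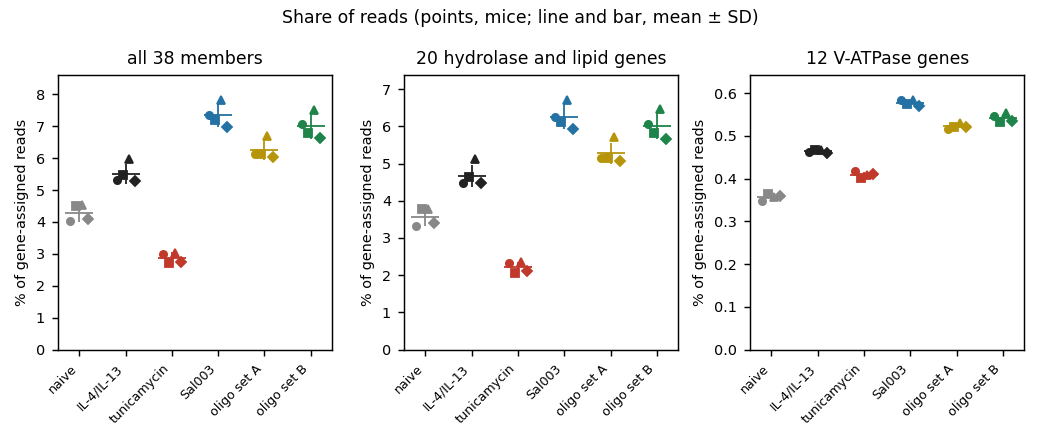
Percent of gene-assigned reads (vertical axes, from 0) on all 38 members, on the 20 hydrolase and lipid genes and on the 12 V-ATPase genes in the 6 groups; points are libraries, with marker shapes for mice, and lines with bars are means ± SD of 4. Tunicamycin lies lowest for all members (2.88%) and Sal003 highest (7.35%), whereas for the V-ATPase genes naive BMDM lie lowest (0.356%).

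Promoters of the members were searched for CACGTG, the core sequence of TFEB and TFE3 binding, which reads the same on both strands, from 250 bases before to 50 bases after the start of each gene's canonical transcript (GENCODE, GRCm39). It was present in 12 of 38 members (31.6%), against 1699 of 21654 promoters of the same length from protein-coding genes of the count table (7.85%). Those 21654 include genes that did not pass the filter on low counts, whereas all 38 members passed it. A background of expressed genes was not tested. The longer form TCACGTGA, which contains CACGTG, was present in 4 of 38 (10.5%) and in 1.11% of all. TGATGNAAT, the site of ATF4 with C/EBP factors, searched on both strands, was in none of the 38 and in 0.901% of all, and a TTC and a GAA 4 bases apart, the core of STAT sites, were in 3 of 38 (7.9%) and in 6.81%. A match of letters does not show binding. The 12 genes are *Atp6v0b*, *Atp6v0e*, *Atp6v1a*, *Atp6v1h*, *Ctsb*, *Ctsd*, *Gaa*, *Gla*, *Glb1*, *Lamp1*, *Mcoln1* and *Naglu*. Shown here 5′ to 3′ from 90 bases before to 50 bases after the start are the promoters of *Ctsd*, *Naglu* and *Gla*, the members that rose most with Sal003, of *Gaa*, which rose with every inhibitor, of *Ctsb*, the most abundant member with a match, of *Lamp1*, with the most matches, and of *Man2b1*, which fell most with tunicamycin and holds no match. These promoters were chosen with the fold changes known. *Ctsl* and *Npc2*, which hold no match, also rose with Sal003, and *Ctsb* and *Lamp1* fell with tunicamycin. Counts with and without a match are given below. Capitals mark CACGTG, with its flanking T and A where these complete TCACGTGA.
*Ctsd* (chr7:141941726-141941865, minus strand): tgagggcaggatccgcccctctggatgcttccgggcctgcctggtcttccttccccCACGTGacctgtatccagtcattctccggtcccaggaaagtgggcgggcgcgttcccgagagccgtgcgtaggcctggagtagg
*Naglu* (chr11:100960748-100960887, plus strand): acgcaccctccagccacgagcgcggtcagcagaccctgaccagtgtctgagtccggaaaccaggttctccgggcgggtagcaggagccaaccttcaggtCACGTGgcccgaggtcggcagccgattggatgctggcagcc
*Gla* (chrX:133501855-133501994, minus strand): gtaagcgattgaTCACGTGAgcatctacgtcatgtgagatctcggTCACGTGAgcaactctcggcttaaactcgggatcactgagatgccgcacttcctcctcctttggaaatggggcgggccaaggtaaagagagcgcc
*Gaa* (chr11:119158623-119158762, plus strand): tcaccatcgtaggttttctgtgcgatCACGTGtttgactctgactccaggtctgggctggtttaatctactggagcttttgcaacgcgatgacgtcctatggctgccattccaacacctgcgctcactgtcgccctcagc
*Ctsb* (chr14:63359787-63359926, plus strand): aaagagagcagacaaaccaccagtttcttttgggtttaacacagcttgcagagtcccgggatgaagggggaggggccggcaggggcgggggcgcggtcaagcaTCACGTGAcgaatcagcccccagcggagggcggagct
*Lamp1* (chr8:13209031-13209170, plus strand): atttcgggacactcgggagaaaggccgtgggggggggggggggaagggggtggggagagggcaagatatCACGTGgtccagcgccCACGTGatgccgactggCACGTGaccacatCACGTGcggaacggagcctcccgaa
*Man2b1* (chr8:85809795-85809934, plus strand): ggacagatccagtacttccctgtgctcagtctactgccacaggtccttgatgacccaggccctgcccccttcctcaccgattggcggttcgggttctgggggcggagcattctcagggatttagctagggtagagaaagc
*Lamp1* carries 4 copies around its start, and *Gla* carries 2, both in the longer form.

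IL-4 and IL-13 alone moved the lysosomal genes in both directions. Of the 38, 13 rose against naive BMDM, where 30.1% of all genes tested were called higher, and 12 fell, where 30.4% were called lower, so that the shares lay near those of all genes. The median log2 fold change of the 38 was 0.04, against -0.02 over all genes. One member, *Atp6v0a1*, rose by at least 2.5-fold (5.39% of all genes did) and none fell as far (6.08% did). By role, 7 of 12 V-ATPase genes rose and 3 fell, whereas 4 of the 20 hydrolase and lipid genes rose and 8 fell. Without mouse 1 the 8 became 5, as *Ctsl*, *Gaa* and *Asah1* were no longer called (edgeR adjusted *P* = 0.12, 0.089 and 0.091), and *Gaa* also lost its call with DESeq2, with no filter, with only the groups compared and without mouse 2 or 5 (adjusted *P* between 0.066 and 0.085). *Ctsl* lost it with DESeq2 (adjusted *P* = 0.06) and without mouse 2 (edgeR adjusted *P* = 0.12), and *Asah1* without mouse 5 (edgeR adjusted *P* = 0.081). Of the genes that rose, *Atp6v1a* lost its call with only the groups compared and without mouse 1 or 2 (edgeR adjusted *P* = 0.15, 0.07 and 0.13). *Tpp1* lost it without mouse 2 (edgeR adjusted *P* = 0.06).

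*Atp6v0a1* (ENSMUSG00000019302, chr11:100881700-100954548) codes for a V0 subunit that helps place the pump in its membrane. It was at 282, 273, 309 and 301 CPM in naive BMDM and at 858, 881, 887 and 880 CPM with the cytokines, with no overlap, a log2 fold change of 1.59 ± 0.05 (SE; edgeR adjusted *P* = 2.4e-18). *Psap* was at 9750, 11000, 11700 and 9740 CPM in naive BMDM and at 21600, 22600, 25400 and 21500 CPM with the cytokines (log2 fold change 1.11 ± 0.08, edgeR adjusted *P* = 1.7e-11). *Ctsz* (cathepsin Z, a carboxypeptidase) rose from 664, 916, 780 and 664 CPM to 1410, 1440, 1570 and 1470 CPM (0.96 ± 0.07, edgeR adjusted *P* = 9.8e-12). For *Ctsz*, 30.7% of the transcript is shared with *Nelfcd*, on the opposite strand. All 3 were separated from naive BMDM in every library.

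*Scarb2*, which codes for the membrane protein LIMP-2 that carries glucocerebrosidase to lysosomes, was at 307, 297, 371 and 327 CPM in naive BMDM and at 147, 153, 180 and 147 CPM with the cytokines. It fell by 1.05 ± 0.07 on the log2 scale (edgeR adjusted *P* = 7.4e-13). *Ctsd* was at 2690, 4100, 3410 and 2920 CPM and then at 1770, 1860, 2250 and 1780 CPM, a fall by 0.78 ± 0.10 (edgeR adjusted *P* = 5.1e-07), and 38% of its transcript is shared with the overlapping gene *Gm49369*, on the same strand, so that its counts are less certain. *Neu1* was at 123, 137, 122 and 118 CPM and then at 82.6, 87.5, 88.5 and 85.6 CPM (-0.54 ± 0.05, edgeR adjusted *P* = 2.2e-10). A membrane receptor, a protease and a glycosidase thus fell, each with no overlap between the naive and the cytokine libraries.

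**Figure D2:**
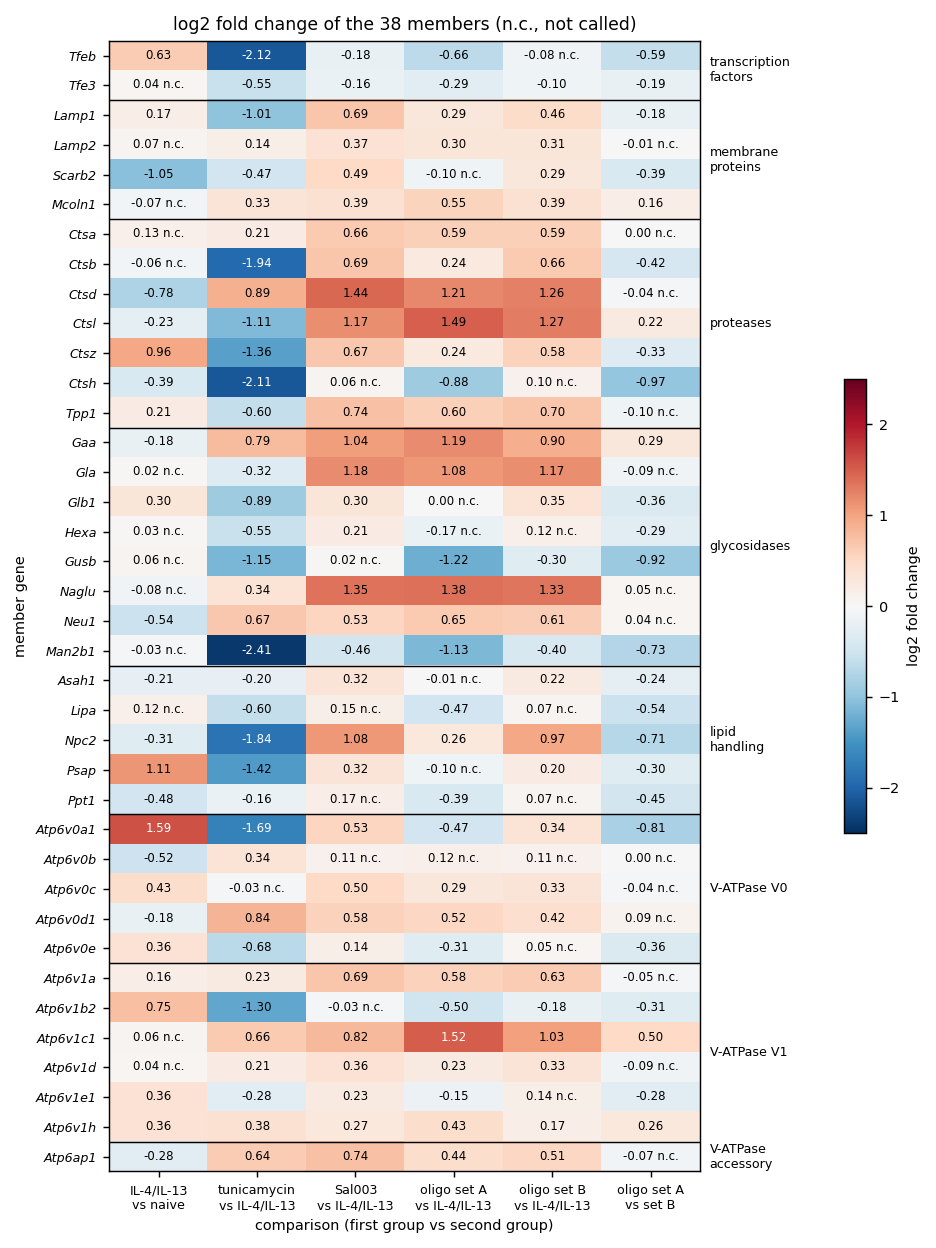
Log2 fold change of each of the 38 members (rows, by role) in 6 comparisons (columns), printed in each cell and coloured red for higher and blue for lower in the first group; n.c. marks values not called. The tunicamycin column holds most of the dark blue cells, down to -2.41 for *Man2b1*, and the Sal003 and oligomycin set B columns are mostly red.

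The 2 factors were followed through all conditions. *Tfeb* (ENSMUSG00000023990, chr17:48047837-48103348) was at 79.2, 98.1, 83.7 and 81.3 CPM in naive BMDM and at 132, 132, 129 and 137 CPM with the cytokines. It rose by 0.63 ± 0.06 on the log2 scale (edgeR adjusted *P* = 6.1e-09). With tunicamycin it was at 32.6, 27.9, 29.9 and 31.6 CPM, with Sal003 at 122, 115, 127 and 105 CPM, in oligomycin set A at 85.2, 80.2, 89.0 and 80.5 CPM and in oligomycin set B at 131, 115, 127 and 129 CPM. The tunicamycin libraries lay below all others, and those of set B overlapped IL-4/IL-13, whereas those of Sal003 lay just under it. Against IL-4/IL-13 the log2 fold change was -2.12 ± 0.07 with tunicamycin (edgeR adjusted *P* = 3.5e-19), -0.18 ± 0.06 with Sal003 (edgeR adjusted *P* = 0.025), -0.66 ± 0.06 in set A (edgeR adjusted *P* = 2.1e-09) and -0.08 ± 0.06 in set B, which was not called (edgeR adjusted *P* = 0.34). The Sal003 call was lost without mouse 5 (-0.11, edgeR adjusted *P* = 0.26). *Tfeb* with tunicamycin also lay below naive BMDM, by -1.49 ± 0.07 (edgeR adjusted *P* = 5.4e-16).

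*Tfe3* (ENSMUSG00000000134, chrX:7628761-7641444) varied less. It was at 241, 249, 246 and 250 CPM in naive BMDM and at 260, 251, 241 and 262 CPM in IL-4/IL-13, which was not called (0.04 ± 0.04, edgeR adjusted *P* = 0.37). It was at 168, 172, 170 and 183 CPM with tunicamycin, at 226, 226, 231 and 224 CPM with Sal003, at 209, 211, 201 and 209 CPM in set A and at 235, 230, 233 and 248 CPM in set B. All 4 groups were called lower than IL-4/IL-13, with log2 fold changes of -0.55 ± 0.04, -0.16 ± 0.04, -0.29 ± 0.04 and -0.10 ± 0.04 (edgeR adjusted *P* = 1.4e-12, 8e-04, 2.3e-07 and 0.026). Only the set B libraries overlapped those of IL-4/IL-13, and that call was lost without mouse 1 (edgeR adjusted *P* = 0.1), without mouse 2 (edgeR adjusted *P* = 0.094) and with no filter on low counts (edgeR adjusted *P* = 0.18).

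**Figure D3:**
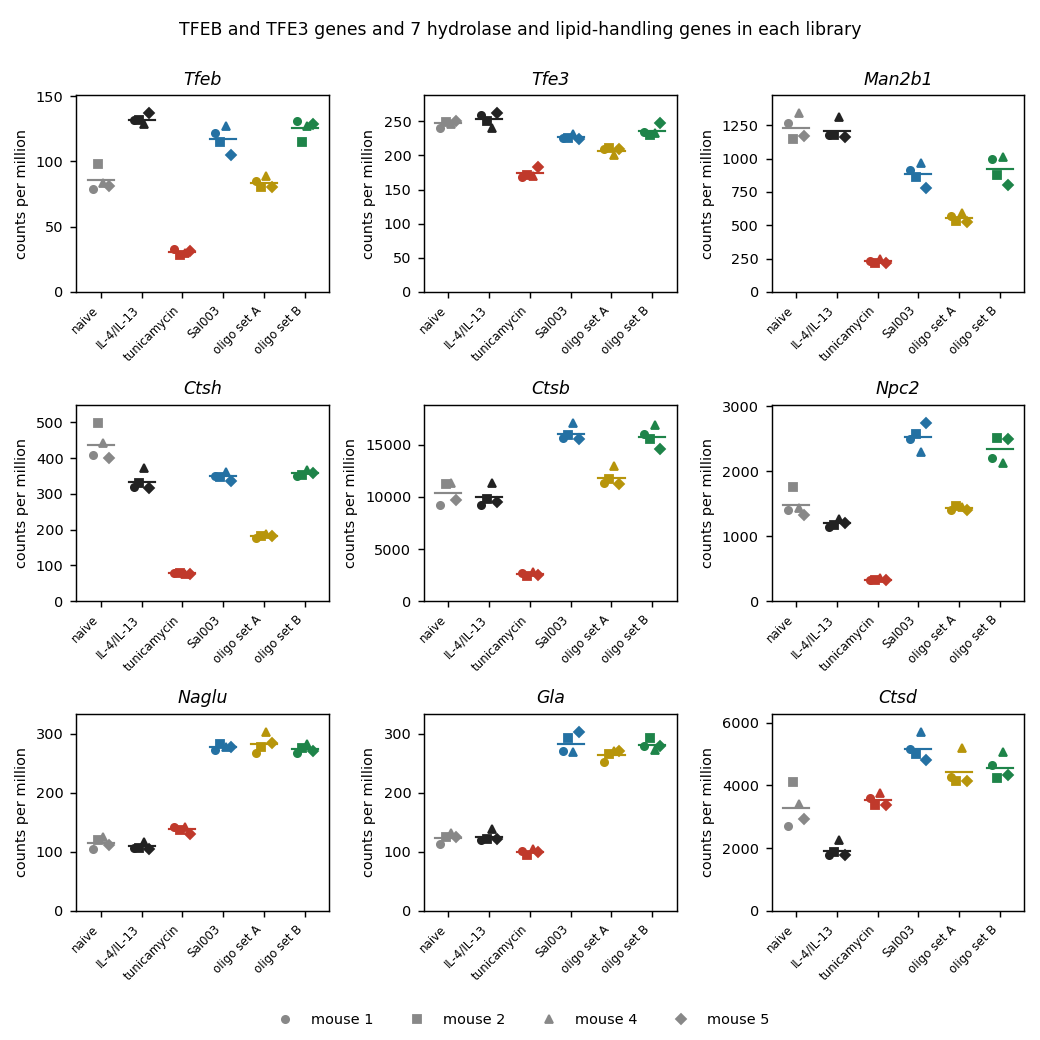
CPM (vertical axes, linear, from 0) of *Tfeb*, *Tfe3* and 7 hydrolase and lipid-handling genes in the 6 groups; points are libraries with marker shapes for mice, and lines are group means. *Tfeb*, *Man2b1*, *Ctsh*, *Ctsb* and *Npc2* are lowest with tunicamycin, whereas *Naglu* and *Gla* are highest with Sal003 and in both oligomycin sets.

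Tunicamycin lowered most of the lysosomal hydrolase genes and raised most of the V-ATPase genes that it moved. Against IL-4/IL-13, 14 of 38 members rose, where 38.7% of all genes tested were called higher, and 23 fell, where 37.6% were called lower. The share that fell thus lay above that of all genes and the share that rose lay near it. At 2.5-fold, 8 members were lower (14.0% of all genes) and none was higher (8.56% of all genes). The median log2 fold change of the members was -0.40, against 0.01 over all genes. Of the 20 hydrolase and lipid genes 15 fell and 5 rose, whereas of the 12 V-ATPase genes 4 fell and 7 rose.

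Among the glycosidases, *Man2b1* (ENSMUSG00000005142, chr8:85809885-85825361), the gene of the lysosomal α-mannosidase that trims the mannose residues of N-glycans, was at 1180, 1180, 1310 and 1160 CPM in IL-4/IL-13 and at 233, 217, 245 and 216 CPM with tunicamycin. It fell by 2.41 ± 0.08 on the log2 scale, or 5.31-fold (edgeR adjusted *P* = 2e-19). *Gusb* (β-glucuronidase) fell by 1.15 ± 0.06 and *Glb1* (β-galactosidase) by 0.89 ± 0.09, whereas *Gaa* (acid α-glucosidase, which degrades glycogen) rose from 110, 112, 133 and 119 CPM to 212, 202, 217 and 190 CPM (0.79 ± 0.06, edgeR adjusted *P* = 3.1e-11). *Neu1* and *Naglu* (α-N-acetylglucosaminidase, which degrades heparan sulfate) also rose, by 0.67 ± 0.05 and 0.34 ± 0.05. The glycosidases were thus split, 5 lower and 3 higher.

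The proteases were split as well. *Ctsh* (cathepsin H, an aminopeptidase) was at 319, 329, 372 and 316 CPM in IL-4/IL-13 and at 77.6, 79.7, 77.2 and 75.4 CPM with tunicamycin, a fall by 2.11 ± 0.06 on the log2 scale (edgeR adjusted *P* = 2.2e-20). *Ctsb* fell by 1.94 ± 0.08, *Ctsz* by 1.36 ± 0.07, *Ctsl* (cathepsin L) by 1.11 ± 0.09 and *Tpp1* (tripeptidyl peptidase) by 0.60 ± 0.06. For *Ctsb*, 24.8% of the transcript is shared with the neighbouring gene *Fdft1*, on the opposite strand. *Ctsd* moved the other way, from 1770, 1860, 2250 and 1780 CPM to 3610, 3390, 3760 and 3390 CPM, a rise of 0.89 ± 0.10 (edgeR adjusted *P* = 3.3e-08), and *Ctsa* (cathepsin A) rose by 0.21 ± 0.06. With tunicamycin the level of *Ctsd* was near that of naive BMDM (0.11 ± 0.10 against naive, edgeR adjusted *P* = 0.34).

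All 5 genes of lipid handling fell. *Npc2*, whose product hands cholesterol to the exporter NPC1, was at 1140, 1180, 1270 and 1200 CPM in IL-4/IL-13 and at 329, 320, 353 and 330 CPM with tunicamycin (-1.84 ± 0.07, edgeR adjusted *P* = 2.3e-17). *Psap* fell by 1.42 ± 0.08, *Lipa* (acid lipase) by 0.60 ± 0.07, *Asah1* (acid ceramidase) by 0.20 ± 0.06 and *Ppt1* (palmitoyl-protein thioesterase) by 0.16 ± 0.07, both with libraries that overlapped those of IL-4/IL-13. The call of *Asah1* was lost without mouse 5 (edgeR adjusted *P* = 0.051), and that of *Ppt1* without mouse 1, 2 or 5 (edgeR adjusted *P* = 0.17, 0.097 and 0.16). Among the membrane proteins, *Lamp1* fell by 1.01 ± 0.06 and *Scarb2* by 0.47 ± 0.07, whereas *Lamp2*, by 0.14 ± 0.06, and the calcium channel gene *Mcoln1*, by 0.33 ± 0.06, rose. The call of *Lamp2* was lost without mouse 1, 2 or 5 (edgeR adjusted *P* = 0.1, 0.15 and 0.062) and with DESeq2 (adjusted *P* = 0.13). For *Lamp1*, 38.5% of the transcript is shared with *Grtp1*, on the opposite strand.

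The V-ATPase genes parted by subunit. *Atp6v0d1* (V0, subunit d) rose from 173, 168, 174 and 166 CPM to 304, 306, 303 and 307 CPM (0.84 ± 0.06, edgeR adjusted *P* = 4.6e-13). *Atp6v1c1* (V1, subunit C) rose by 0.66 ± 0.04 and *Atp6ap1* by 0.64 ± 0.06. *Atp6v0a1* was at 269, 269, 282 and 266 CPM, a fall by 1.69 ± 0.05 (edgeR adjusted *P* = 1.6e-19) to a level not called different from naive BMDM (-0.10 ± 0.05, edgeR adjusted *P* = 0.073). *Atp6v1b2* (V1, the B subunit that shares the ATP sites) fell by 1.30 ± 0.04, to 437, 433, 456 and 433 CPM from 1070, 1100, 1090 and 1070 CPM, whereas *Atp6v1a* (the catalytic A subunit) rose by 0.23 ± 0.06. The A and B subunit genes, whose products alternate in the same ring, therefore moved in opposite directions in this comparison. *Atp6v0c* (the proton-carrying ring subunit) was not called (-0.03 ± 0.05, edgeR adjusted *P* = 0.63), and 32.4% of its transcript is near-identical to 2 pseudogenes.

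**Figure D4:**
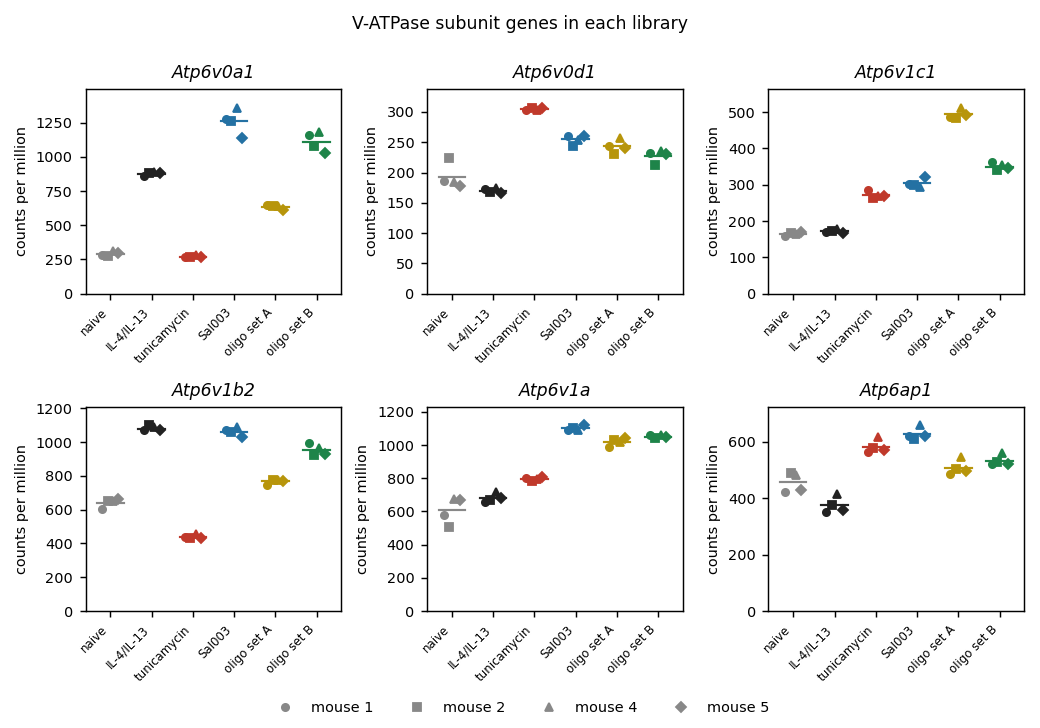
CPM (vertical axes, linear, from 0) of 6 V-ATPase genes in the 6 groups; points are libraries with marker shapes for mice, and lines are group means. *Atp6v0a1* and *Atp6v1b2* fall with tunicamycin to 271 and 440 CPM, *Atp6v0d1* is highest with tunicamycin (305 CPM) and *Atp6v1c1* is highest in oligomycin set A (494 CPM).

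With Sal003 most of the lysosomal genes rose. Of the 38, 29 were called higher than IL-4/IL-13, where 25.9% of all genes tested were called higher, and 3 lower, where 24.6% were called lower. The median log2 fold change was 0.44, against 0.00 over all genes. At 2.5-fold, 2 were higher (2.68% of all genes) and none was lower (5.04% of all genes), so that the rise was broad and mostly small. It took in all 4 membrane protein genes, 6 of 7 proteases, 6 of 8 glycosidases, 3 of 5 lipid genes and 10 of 12 V-ATPase genes, and neither of the 2 factors. The call of *Atp6v0e* was lost in several alternative runs, among them DESeq2 (adjusted *P* = 0.068) and leaving out mouse 1 (edgeR adjusted *P* = 0.26). *Hexa* lost its call with DESeq2 (adjusted *P* = 0.052) and without mouse 1 (edgeR adjusted *P* = 0.16), among others. *Glb1* lost it without mouse 1 (edgeR adjusted *P* = 0.074).

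*Ctsd* led, at 5180, 5010, 5710 and 4830 CPM with Sal003 (log2 fold change 1.44 ± 0.11, edgeR adjusted *P* = 2.9e-11). *Naglu* (ENSMUSG00000001751, chr11:100960838-100968517) was at 106, 107, 117 and 105 CPM in IL-4/IL-13 and at 272, 283, 278 and 278 CPM with Sal003 (1.35 ± 0.05, edgeR adjusted *P* = 3.7e-16). *Gla* (ENSMUSG00000031266, chrX:133488891-133501904), the gene of α-galactosidase, which removes galactose from globosides, was at 120, 121, 138 and 122 CPM and then at 270, 292, 269 and 303 CPM (1.18 ± 0.05, edgeR adjusted *P* = 4.8e-15). In all 3 the Sal003 libraries lay above every IL-4/IL-13 library. These genes carry CACGTG in the promoter stretches printed above, as does *Gaa*, which rose by 1.04 ± 0.06. *Ctsl* and *Npc2*, which lack it in the searched window, rose by 1.17 ± 0.09 and 1.08 ± 0.07.

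The 3 members that fell with Sal003 were *Man2b1*, *Tfeb* and *Tfe3*. *Man2b1* was at 914, 862, 965 and 782 CPM, a fall by 0.46 ± 0.07 (edgeR adjusted *P* = 9.7e-06). Among the 6 not called were *Ctsh* (0.06 ± 0.06), *Gusb* (0.02 ± 0.06), *Lipa* (0.15 ± 0.07) and *Ppt1* (0.17 ± 0.07). With the mouse as a replicate block the last pair were called (edgeR adjusted *P* = 0.017 and 0.00044), as they were without mouse 4 (edgeR adjusted *P* = 0.022 and 0.00094), which made 5 of 5 lipid genes higher. The V-ATPase gene with the largest rise was *Atp6v1c1* (0.82 ± 0.04), followed by *Atp6ap1* (0.74 ± 0.06) and *Atp6v1a* (0.69 ± 0.06), whereas *Atp6v1b2* was not called (-0.03 ± 0.04, edgeR adjusted *P* = 0.60).

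In oligomycin set A, 21 of 38 members rose against IL-4/IL-13, where 34.0% of all genes tested were called higher, and 11 fell, where 32.2% were called lower. At 2.5-fold, 3 were higher (4.79% of all genes) and none was lower (7.96% of all genes), and the median was 0.24, against 0.01 over all genes. *Atp6v1c1* was at 169, 172, 179 and 166 CPM in IL-4/IL-13 and at 487, 483, 512 and 493 CPM in set A (log2 fold change 1.52 ± 0.04, edgeR adjusted *P* = 3.1e-20). *Ctsl* was at 899, 971, 1140 and 934 CPM and then at 2680, 2700, 3100 and 2620 CPM (1.49 ± 0.09, edgeR adjusted *P* = 1.4e-13). *Naglu* was at 268, 278, 303 and 284 CPM (1.38 ± 0.05, edgeR adjusted *P* = 2.7e-17). None of these 3 groups of libraries overlapped IL-4/IL-13, and 33.0% of the *Ctsl* transcript is shared with other genes, mainly *Gm47123* on the opposite strand.

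Among the falls in set A were those of *Gusb*, *Man2b1* and *Ctsh*. *Gusb* was at 606, 623, 713 and 598 CPM in IL-4/IL-13 and at 266, 266, 294 and 264 CPM in set A, a fall by 1.22 ± 0.06 on the log2 scale (edgeR adjusted *P* = 1.9e-14). Of its transcript, 23.7% is shared with *Vkorc1l1*, on the opposite strand. *Man2b1* was at 572, 530, 588 and 526 CPM (-1.13 ± 0.07, edgeR adjusted *P* = 1e-12) and *Ctsh* at 176, 181, 189 and 181 CPM (-0.88 ± 0.06, edgeR adjusted *P* = 1.1e-12). In the V-ATPase, 7 genes rose and 4 fell, *Atp6v0a1* by 0.47 ± 0.05, *Atp6v1b2* by 0.50 ± 0.04, *Atp6v0e* by 0.31 ± 0.05 and *Atp6v1e1* by 0.15 ± 0.06, the last not called without mouse 1, 4 or 5 (edgeR adjusted *P* = 0.11, 0.081 and 0.11).

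In oligomycin set B, 26 of 38 members rose, where 27.9% of all genes tested were called higher, and 4 fell, where 26.4% were called lower. One was higher by at least 2.5-fold (2.94% of all genes) and none was lower by as much (5.02% of all genes), and the median was 0.34, against 0.00 over all genes. *Naglu* was at 267, 276, 282 and 271 CPM (1.33 ± 0.05, edgeR adjusted *P* = 2.3e-16), *Ctsl* at 2460, 2260, 2700 and 2090 CPM (1.27 ± 0.09, edgeR adjusted *P* = 7.1e-12) and *Ctsd* at 4650, 4240, 5070 and 4330 CPM (1.26 ± 0.11, edgeR adjusted *P* = 2.5e-10). The 4 that fell were *Man2b1*, at 993, 874, 1010 and 805 CPM (-0.40 ± 0.07, edgeR adjusted *P* = 5.5e-05), *Gusb*, at 527, 512, 559 and 469 CPM (-0.30 ± 0.06, edgeR adjusted *P* = 0.00032), *Atp6v1b2*, at 993, 925, 966 and 930 CPM (-0.18 ± 0.04, edgeR adjusted *P* = 0.00018), and *Tfe3*. Among the 8 not called were *Tfeb* and *Ctsh*. Of those called higher, *Psap* lost its call with DESeq2 (adjusted *P* = 0.085) and without mouse 1 (edgeR adjusted *P* = 0.27), among other runs. *Asah1* and *Atp6v1h* also lost theirs without mouse 1 (edgeR adjusted *P* = 0.12 and 0.19). Because 1 set of IL-4/IL-13 libraries served as control for all 4 inhibitor groups, their fold changes are not independent of each other.

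The oligomycin sets, which by the labels differ in ISRIB, were compared directly. Set A was higher than set B in 5 of 38 members, where 19.9% of all genes tested were called higher, and lower in 20, where 21.3% were called lower. No member differed by 2.5-fold (1.14% of all genes were that much higher and 1.48% that much lower), and the median was -0.18, against 0.00 over all genes. The lowest against set B was *Ctsh*, with 349, 354, 367 and 358 CPM in set B (-0.97 ± 0.06, edgeR adjusted *P* = 1.5e-12). It was followed by *Gusb* (-0.92 ± 0.06, edgeR adjusted *P* = 2.8e-11) and by *Atp6v0a1*, at 648, 638, 639 and 613 CPM in set A and 1160, 1080, 1180 and 1030 CPM in set B (-0.81 ± 0.05, edgeR adjusted *P* = 6.5e-12). All 5 lipid genes, both factors and 12 of the 20 hydrolase and lipid genes together were lower in set A. Without mouse 1 the calls of *Asah1*, *Psap* and *Hexa* were lost (edgeR adjusted *P* = 0.074, 0.061 and 0.071), which left 3 of the 5 lipid genes.

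Higher in set A were *Atp6v1c1*, at 362, 340, 354 and 346 CPM in set B (0.50 ± 0.04, edgeR adjusted *P* = 2.4e-10), *Gaa*, at 260, 262, 291 and 272 CPM in set A and 217, 213, 239 and 217 CPM in set B (0.29 ± 0.06, edgeR adjusted *P* = 0.00051), and *Atp6v1h* (a regulatory V1 subunit), at 140, 142, 148 and 140 CPM in set A and 125, 114, 122 and 114 CPM in set B (0.26 ± 0.05, edgeR adjusted *P* = 0.00032). The other two, *Ctsl* (0.22 ± 0.09) and *Mcoln1* (0.16 ± 0.06), lost their calls without mouse 1 (edgeR adjusted *P* = 0.077 and 0.13), which left 3 members called higher. *Naglu*, *Ctsd* and *Gla*, which led the rises with Sal003, were not called between the sets, with differences of 0.05 ± 0.05, -0.04 ± 0.10 and -0.09 ± 0.05.

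Set against each other, tunicamycin and Sal003 differed in most members. Tunicamycin was lower in 32 of 38, where 36.0% of all genes tested were called lower, and higher in 3, where 35.9% were called higher, with a median of -0.75 against -0.01 over all genes. *Npc2*, with 2500, 2580, 2300 and 2750 CPM in Sal003, was 7.6-fold lower with tunicamycin (-2.93 ± 0.08, edgeR adjusted *P* = 6.1e-21), and *Ctsb*, at 2680, 2420, 2800 and 2490 CPM with tunicamycin and 15600, 15900, 17100 and 15500 CPM with Sal003, was lower 6.16-fold (-2.62 ± 0.08, edgeR adjusted *P* = 5.5e-20). The 3 that were higher with tunicamycin were *Atp6v0d1* (0.26 ± 0.05), *Atp6v0b* (0.23 ± 0.06) and *Neu1* (0.14 ± 0.05), the last not called without mouse 4. All 7 protease genes were lower with tunicamycin than with Sal003, including *Ctsd* (-0.55 ± 0.10), which both raised.

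**Figure D5:**
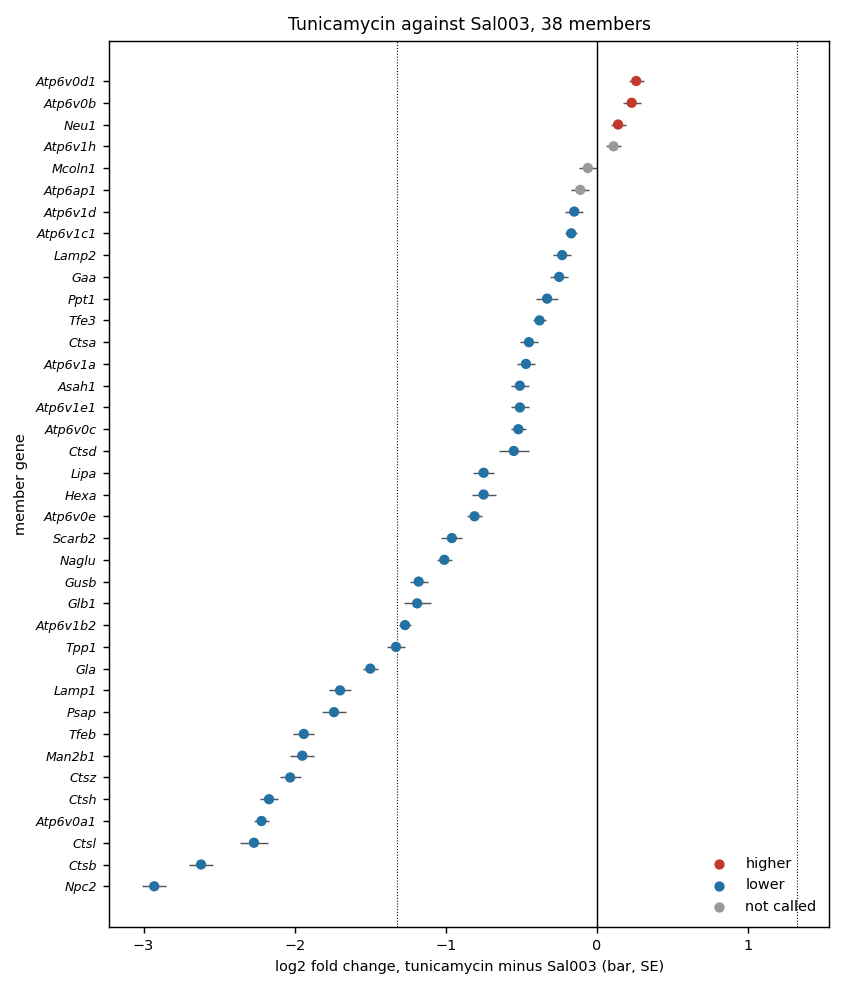
Log2 fold change, tunicamycin minus Sal003 (horizontal axis), of each of the 38 members (vertical axis, sorted), with bars for the SE; colours mark called members and dotted lines mark 2.5-fold. Of the points, 32 are called lower with tunicamycin, from *Npc2* at -2.93, and 3 are called higher.

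Against oligomycin set A, tunicamycin was lower in 28 members, where 32.1% of all genes were called lower, and higher in 4, where 31.4% were called higher. Set A was lower than Sal003 in 22 members, where 26.4% of all genes were called lower, and higher in 6, where 25.1% were called higher, a count that fell to 3 without mouse 4 and to 2 without mouse 5. Set B stood nearest to Sal003: 8 members were lower in set B, where 8.77% of all genes were called lower, 1 was higher, where 9.74% were called higher, and 29 were not called. The 8 became 3 without mouse 1 and 5 without mouse 2 or mouse 5. The one that was higher was *Atp6v1c1* (0.20 ± 0.04, edgeR adjusted *P* = 0.00055), and the largest fall was that of *Gusb* (-0.32 ± 0.06, edgeR adjusted *P* = 0.00074).

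The inhibitor groups were also set against naive BMDM. Tunicamycin was higher in 13 members, where 37.1% of all genes were called higher, and lower in 22, where 40.5% were called lower. *Ctsh* (-2.5 ± 0.06), *Man2b1* (-2.44 ± 0.08), *Npc2* (-2.15 ± 0.07) and *Ctsb* (-1.99 ± 0.08) all lay below naive BMDM. Sal003 was higher than naive in 29 members, where 31.7% of all genes were called higher, and lower in 6, where 30.8% were called lower. For the oligomycin sets, the largest called changes with the same direction in 4 of 4 mice are given. In set A they were those of *Atp6v1c1* (1.59 ± 0.04) and *Ctsh* (-1.27 ± 0.06). In set B they were those of *Atp6v0a1* (1.93 ± 0.05) and *Scarb2* (-0.77 ± 0.07).

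Members with and without CACGTG in the promoter window were counted separately. With Sal003, 11 of the 12 with the sequence rose and none fell, and 18 of the 26 without it rose and 3 fell, beside 25.9% and 24.6% of all genes tested, with median log2 fold changes of 0.69 and 0.36. With tunicamycin, 7 of the 12 rose and 5 fell, against 7 and 18 of the 26, beside 38.7% and 37.6% of all genes, with medians of 0.28 and -0.55. In set A, 9 of the 12 rose and 1 fell, against 12 and 10 of the 26, beside 34.0% and 32.2% of all genes. The medians there were 0.49 and -0.06. In set B 10 rose and none fell, against 16 and 4, beside 27.9% and 26.4%, with medians of 0.55 and 0.3. For the cytokines alone the medians were -0.02 and 0.05. Where inhibitor groups were set against each other, the medians with and without the sequence were -0.68 and -0.75 for tunicamycin against Sal003. They were both -0.38 for tunicamycin against set A, and -0.11 and -0.38 for set A against Sal003. For set A against set B they were -0.04 and -0.29. For tunicamycin against set B they were -0.56 and -0.68, and for set B against Sal003 -0.05 and -0.09. These counts are descriptions, without a test, and the 4 inhibitor groups share the IL-4/IL-13 libraries.

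A further list of 89 genes of the pathway that are not among the 38 was counted in the same way, and 82 were tested. Against naive BMDM 34 rose and 29 fell with the cytokines, beside 30.1% and 30.4% of all genes tested. Against IL-4/IL-13, 32 rose and 36 fell with tunicamycin (38.7% and 37.6% of all genes), 55 rose and 11 fell with Sal003 (25.9% and 24.6%), 40 rose and 27 fell in set A (34.0% and 32.2%), and 49 rose and 17 fell in set B (27.9% and 26.4%). The largest rise with the cytokines and the largest fall with tunicamycin were those of *Atp6v0d2*, a V0 subunit gene known from osteoclasts and macrophages. It was at 52.5, 60.0, 69.0 and 66.8 CPM in naive BMDM, at 695, 715, 740 and 720 CPM in IL-4/IL-13 (3.53 ± 0.09, edgeR adjusted *P* = 7.9e-21) and at 31.2, 22.8, 32.4 and 26.6 CPM with tunicamycin (-4.67 ± 0.09, edgeR adjusted *P* = 3.3e-23). In these comparisons it ran opposite to its paralog *Atp6v0d1*, which fell slightly with the cytokines (-0.18 ± 0.05, edgeR adjusted *P* = 0.0068) and rose with tunicamycin. The former call was lost with no filter on low counts (edgeR adjusted *P* = 0.058) and with only the groups compared (edgeR adjusted *P* = 0.059). With Sal003 and in sets A and B the means of both paralogs lay above IL-4/IL-13. Those of *Atp6v0d2* were 964, 895 and 1090 CPM, against 717 CPM. Those of *Atp6v0d1* were 255, 243 and 228 CPM, against 170 CPM.

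Of the same list, *Sort1*, the gene of the sorting receptor sortilin, fell with tunicamycin (-3.19 ± 0.19, edgeR adjusted *P* = 4.4e-14), as did *Tpcn2*, a lysosomal cation channel gene (-2.97 ± 0.07, edgeR adjusted *P* = 3e-22). With Sal003, *Scpep1* (a serine carboxypeptidase) rose by 1.24 ± 0.06 and *Fnip2* (a folliculin partner upstream of TFEB and TFE3) by 1.16 ± 0.08, while *Naaa* (an acid amidase) fell by 1.45 ± 0.11. In set A, *Npc1*, the cholesterol exporter that works with NPC2, rose by 1.72 ± 0.09 and stood 0.70 ± 0.09 above set B. *Tfec*, a relative of *Tfeb*, was also higher in set A than in set B (0.82 ± 0.05, edgeR adjusted *P* = 1e-11), the opposite of *Tfeb* and *Tfe3* between these sets.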

How the data were processed

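RNA of 24 BMDM libraries was sequenced single-end (150 bases). Per the study's methods, adapters were cut off with cutadapt 1.8, reads of ribosomal origin or low complexity were discarded, STAR 2.7 placed the rest on GRCm39, and the authors deposited raw counts per gene from HTSeq 0.9.1. The strand setting is not given in the sources used here. Rows naming no gene, which took 12.74 to 15.23% of reads, were left out. A deposited TPM table from RSEM 1.2.31 with 24 per-sample columns was not used, because its header does not match its columns. TPM were computed here from counts and canonical transcript lengths.

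All 24 libraries were fitted in 1 model with edgeR 4.0.16 (R 4.3.3): TMM scaling, filterByExpr by group, a quasi-likelihood test and Benjamini-Hochberg adjustment over 13679 genes, called at 0.05 with no minimum fold. The median biological coefficient of variation was 7.1%. Members and lists were chosen with earlier results of these data known. All 38 members could be named, with values in every library for the 3 largest called changes in each direction and comparison that went the same way in 4 of 4 mice, and for *Tfeb* and *Tfe3*. *Npc2*, *Atp6v0a1* and *Atp6v1b2* with tunicamycin were added after their values were seen. Of other pathway genes, at most 3 per direction were named.

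Groups followed the replicate labels, with the oligomycin conflict kept as sets A and B. Numbers mark the mouse, which gave cells to each condition. Same-mouse deviations from the group means correlated with a median r of 0.24 over 60 pairs, against -0.05 over 180 pairs of different mice. Each group thus holds 4 animals. Alternatives were DESeq2 1.42.0, upper-quartile scaling, other filters, only the groups compared, the mouse as a block and leaving out each mouse. In data simulated for tunicamycin against IL-4/IL-13 over 13679 genes, edgeR recovered 66% of changes of 0.5 and 88% of changes of 1.0 on the log2 scale. The changed genes were drawn from all genes tested, low counts included. They were far fewer than those called in the data (38.7% higher and 37.6% lower). These rates therefore do not describe the tests of the members. Shared sequence was taken from blastn 2.17.0 at 95% identity over at least 100 bases. Matches on either strand were kept, so genes that overlap on the opposite strand are included. Such overlap also covered 51.5% of the *Atp6v0b*, 42.9% of the *Ctsa* and 41.0% of the *Atp6v1e1* transcript, among others. Its part in the counts was not tested.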

Additional observations from a re-analysis of the deposited data

Results flagged for a closer look

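Of 228 sets of 4 libraries (38 genes in 6 groups), 20 held a library set apart from the other 3. For a single set, chance gives about 1 in 20. The sets share libraries and mice and are not independent, so the count cannot be tested against that rate. In 15 of the 20 it was mouse 4 that stood highest. In IL-4/IL-13, mouse 4 was at 138 CPM for *Gla* (the others at 120 to 122), 1360 CPM for *Hexa* (1190 to 1210), 891 CPM for *Lamp2* (753 to 767), 1310 CPM for *Man2b1* (1160 to 1180) and 101 CPM for *Ppt1* (83.9 to 86.6). In oligomycin set A it was at 1500 CPM for *Ctsa* (1330 to 1360), 5190 CPM for *Ctsd* (4130 to 4280), 3100 CPM for *Ctsl* (2620 to 2700), 294 CPM for *Gusb* (264 to 266) and 145 CPM for *Neu1* (all 3 others at 132).

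Mouse 4 was also highest for *Asah1* with Sal003 at 603 CPM (550 to 558), *Lamp2* with Sal003 at 1050 CPM (all 3 others at 1010) and in naive BMDM at 853 CPM (719 to 723), *Atp6v0a1* with tunicamycin at 282 CPM (266 to 269) and *Gaa* in oligomycin set B at 239 CPM (213 to 217). It was lowest for *Tfe3* in oligomycin set A at 201 CPM (209 to 211). Mouse 2 was highest in naive BMDM for *Atp6v0e* at 147 CPM (117 to 121) and *Atp6v1e1* at 180 CPM (131 to 140). Mouse 5 was highest for *Atp6v1a* with Sal003 at 1120 CPM (1090 to 1100), and mouse 1 for *Atp6v1e1* with tunicamycin at 159 CPM (all 3 others at 155).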

How the results depend on the processing

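No fold change of the 38 genes in the 6 main comparisons was called with the opposite sign under any alternative run. Of the 228 calls, 219 kept their side of the threshold with DESeq2, 221 with upper-quartile scaling, 221 with no filter, 224 with at least 10 counts in every library and 215 with only the groups compared. Leaving out 1 mouse kept between 207 (mouse 1) and 223 (mouse 4), with fewer samples in each fit. The count of members called higher in oligomycin set A than in set B was 5 and ranged from 3 to 4 without 1 mouse, with 3 without mouse 1. The count higher in set A than in Sal003 was 6 and ranged from 2 to 5 without 1 mouse, and the count lower in set B than in Sal003 was 8 and ranged from 3 to 6. The other counts over all 38 members stayed within 1.5 times. Among counts by role, the 8 hydrolase and lipid genes that fell with the cytokines became 5 without mouse 1, the 5 lipid genes that fell with tunicamycin became 3 without mouse 5, between the sets the 5 lipid genes lower in set A became 3 without mouse 1, and the 5 members with CACGTG that rose with the cytokines became 3 without mouse 1 or with only the groups compared. The 3 lipid genes that rose in set B became 1 without mouse 1. The counts of the further pathway genes in the 6 main comparisons stayed within 1.5 times. Outside the 6 main comparisons only counts were recomputed. With the mouse as a replicate block, 222 of the 228 calls were the same and 6 were gained (*Ctsa* and *Lipa* with the cytokines, *Lipa* and *Ppt1* with Sal003, *Hexa* in set A and *Atp6v1e1* in set B). The counts higher and lower under the block were 15 and 12 for IL-4/IL-13, 14 and 23 for tunicamycin, 31 and 3 for Sal003, 21 and 12 for set A, 27 and 4 for set B, and 5 and 20 between the sets. The members had counts of at least 528 in every library, and the part of depth in their calls was not tested.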
